A study of Rattus norvegicus with 6 samples.

Results

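The data are values for a run of neighbouring loci on chromosome 10 of the rat that carries the working name of the Schlafen locus run. Its members were chosen by position: a locus belongs if all its transcript starts and ends fall on chromosome 10 between 70298519 and 70435156, a stretch of 136.638 kb. These are the deposited coordinates, whose genome build no source used here names. This gave 5 loci of the 13685 in the files, namely XLOC_006710 (ENSRNOG00000021719), XLOC_007913 (ENSRNOG00000021412), XLOC_006714 (ENSRNOG00000037113), XLOC_006715 (ENSRNOG00000048053) and XLOC_006716 (ENSRNOG00000057092). The stretch itself was picked because its loci were low in the knockdown libraries, so its levels in knockdown against control are described and not tested.

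RNA-seq was measured in 6 libraries, 2 with interference sequence 2 against SLC2A10, 2 with interference sequence 3 and 2 controls. SLC2A10 encodes the glucose transporter GLUT10. By the study's methods these were cultured vascular smooth muscle cells (VSMCs) from the aorta of male Sprague-Dawley rats, at passage 3, which received an shRNA virus or a control virus. In the labels all libraries have strain SD, the titles of the knockdown libraries say siRNA, their genotype is SLC2A10-/-, and that of the controls is wild type. The labels also mention frozen aorta and mice, so the sources differ on whether tissue or culture was used. Sequence and replicate were taken, in that order, from the 2 numbers that close a knockdown title. No age is given, and nothing says whether the 2 replicates of a group were separate cultures, so spreads and p-values cover these libraries only. The gene names at hand carry no Ensembl IDs. SLC2A10, smooth muscle markers and markers of other cells were therefore not analysed here, and no direction could be checked on the targeted gene in these data. The study's methods report a qPCR check of the interference, and its text gives no value for it. In bulk RNA, fewer cells of a type and less RNA per cell cannot be told apart.

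Levels are in FPKM, fragments per kilobase of transcript scaled to the mapped total of the library, as the authors deposited them. The level of a locus is the larger of its summed starts and its summed ends, and a locus not listed in a library is at 0. The sequencing depth is unknown. Each library listed 11564 to 11856 loci, and replicate 2 of sequence 3 had the fewest transcript starts, 12837 against 13305 to 13826. Pearson's r across loci between replicate 2 of sequence 3 and its own replicate 1 was 0.954, against 0.969 for the pair of sequence 2 and 0.966 for the controls.

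Schlafen genes are a family found side by side in rodent genomes, and many of them are induced by interferons and by other signals of infection. In mouse, Slfn1 was first described as a brake on the growth of T cells, and mouse Slfn2 is needed to keep T cells and monocytes at rest. Longer members carry a helicase-like part, and in human cells SLFN11 acts against retroviruses and sensitises cells to DNA damage. The rat protein named SLFN13 cuts transfer RNA and ribosomal RNA. These roles are background and are not assigned to any locus here, since 0 of the 5 Ensembl IDs could be paired with a symbol.

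The layout of the run could be compared with the Schlafen genes without using IDs. From low to high coordinate, the 5 loci span 13.6, 16.3, 6.03, 5.77 and 23.4 kb, and the left ends of neighbouring loci are 27.6, 44.1, 24.2 and 17.2 kb apart. XLOC_007913 lies on the minus strand and the other 4 loci on the plus strand. In RefSeq's gene table for the assembly GRCr8, which need not be the build of the files, 8 genes with Schlafen symbols lie on chromosome 10. The first 5 of them, Slfn5, Slfn9, Slfn2, Slfn1 and Slfn4, have lengths of 14.1, 13.4, 6.34, 5.83 and 23.5 kb and left ends 28.2, 44.2, 24.1 and 17.1 kb apart. The largest difference between matching distances was 0.563 kb, whereas any other 5 consecutive Schlafen genes gave a largest difference of at least 20.0 kb. Of the 4 of these genes with a strand in the promoter table, Slfn9 is on the minus strand and Slfn5, Slfn2 and Slfn4 are on the plus strand. The layout therefore does not go against the working name. No locus was given a gene's name from it, and Slfn1 could not be compared by strand.

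The promoter sequences of the Schlafen genes were searched for the letters that interferon-activated factors are known to bind, because interferons induce many genes of this family. Binding was not measured, and a link to the levels of the run was not tested. The promoters come from RefSeq's GRCr8 table, run from 250 bases before to 50 bases after a gene's start, and none could be paired with a locus of the files. The core of the interferon-stimulated response element, GAAA followed after any 2 bases by GAAA, searched on both strands, was in 0 of the 6 Schlafen promoters of chromosome 10 in that table and in 3.77% of all 27457 promoters. The gamma-activated site, TTCNNNGAA, which reads the same on both strands, was in 2 of the 6 and in 8.68% of all promoters. Those 2 were Slfn2, which is among the 5 genes compared with the run by layout, and Slfn3, which lies beyond them. Slfn4l1 also lies beyond them, and Slfn1 had no promoter in that table. With no match of the first motif in these promoters, the motifs overlap in none of them, and a missing match says only that these letters are not in this window. The 2 promoters with a match are printed 5′ to 3′ with the match in capitals, which begins 88 bases before the start of Slfn2 (GRCr8 chr10:68450611-68450910, plus strand) and 225 bases before the start of Slfn3 (GRCr8 chr10:68519277-68519576, plus strand).
Slfn2: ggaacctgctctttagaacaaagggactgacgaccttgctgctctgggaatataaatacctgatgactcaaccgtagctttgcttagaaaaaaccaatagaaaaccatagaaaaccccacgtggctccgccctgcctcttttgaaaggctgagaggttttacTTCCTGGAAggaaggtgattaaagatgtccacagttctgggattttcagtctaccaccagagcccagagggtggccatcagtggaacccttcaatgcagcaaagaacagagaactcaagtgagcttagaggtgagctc
Slfn3: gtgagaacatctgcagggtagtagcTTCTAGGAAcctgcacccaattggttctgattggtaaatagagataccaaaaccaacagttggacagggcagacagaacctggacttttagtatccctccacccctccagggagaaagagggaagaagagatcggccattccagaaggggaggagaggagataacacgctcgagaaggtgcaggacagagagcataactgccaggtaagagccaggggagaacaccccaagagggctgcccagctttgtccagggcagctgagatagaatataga

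In the controls, the run held a pair of abundant and a pair of moderate loci, and 1 locus that was not listed. XLOC_006716, at the high end of the run, was the most abundant at 245.6 ± 18.9 FPKM (SD, n = 2), and ranked 166 and 202 among the listed loci of the 2 control libraries. XLOC_006714 followed at 169 ± 14.0 FPKM (SD, n = 2), at ranks 241 and 297. These 2 loci did not overlap with each other, nor with the other loci, in control libraries. XLOC_006710 at 28.8 ± 1.66 FPKM and XLOC_007913 at 28.0 ± 3.20 FPKM (SD, n = 2 each) overlapped, and their libraries ranked between 1763 and 2121. FPKM is scaled by length, so these levels can be set beside each other.

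All 4 loci that passed the filter on low values, which asks for 2 or more libraries at 1 FPKM or above, were lower in each of the 4 knockdown libraries than in either control. Across all 10648 loci that passed, 11.2% had all 4 knockdown libraries below both controls, and 2.86% were called lower in knockdown against control at an adjusted p under 0.05 from limma. The run was chosen on this contrast, so nothing is read from its own count. Its median log2 change, on the scale of log2(FPKM + 1), was -2.26, and the median over all tested loci was 0.082.

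**Figure D1:**
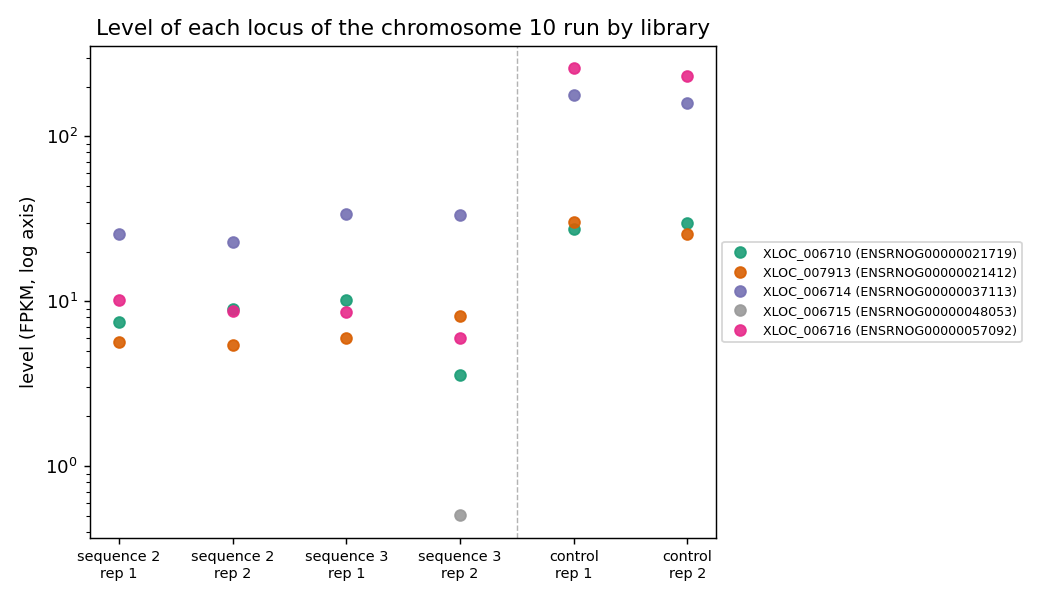
Level of each locus of the run in FPKM on a log axis, 1 point per locus and library, with the 4 knockdown libraries left of the 2 controls; a level of 0 is not drawn. Every locus drawn in the controls lies lower in all 4 knockdown libraries, and XLOC_006716, the highest locus in the controls, lies at 6.01 to 10.2 FPKM in the knockdown libraries, below XLOC_006714.

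XLOC_006716 had the largest difference of the run. Its level was 10.2 and 8.68 FPKM with sequence 2 and 8.59 and 6.01 FPKM with sequence 3, against 259 and 232 FPKM in the controls. The highest knockdown library was thus 22.7-fold below the lower control. Its mean in the knockdown libraries was 3.41% of its control mean, a 29.3-fold difference, and its log2 change was -4.74 with a standard error of 0.16. Among the 10648 tested loci it ranked 34 from the most negative change.

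XLOC_006714 was the most abundant locus of the run in every knockdown library and came after XLOC_006716 in both controls. Its level was 25.4 and 22.9 FPKM with sequence 2 and 33.7 and 33.4 FPKM with sequence 3, against 178 and 159 FPKM in the controls. Its knockdown mean was 17.1% of its control mean, a 5.84-fold difference, and the groups were 4.71-fold apart at their nearest libraries. The log2 change was -2.52 with a standard error of 0.10. This locus has 1 start and 2 ends in the files, and the ends share their last base at 70376331 and differ in where the last exon begins. The minor end, beginning at 70375364, had 0.180 to 0.702 FPKM in the knockdown libraries, against 1.59 and 2.36 FPKM in the controls.

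XLOC_007913, the minus-strand locus, had 5.62 and 5.41 FPKM with sequence 2 and 5.94 and 8.08 FPKM with sequence 3, against 30.2 and 25.7 FPKM in the controls. The knockdown mean was 22.4% of the control mean, a 4.46-fold difference, with the nearest libraries 3.18-fold apart. The log2 change was -2.01 with a standard error of 0.15. Its highest knockdown value came from replicate 2 of sequence 3, the library with the fewest starts.

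XLOC_006710, at the low end of the run, was the least even locus. It had 7.45 and 9.003 FPKM with sequence 2 and 10.1 and 3.55 FPKM with sequence 3, against 27.6 and 29.9 FPKM in the controls. The knockdown mean was 26.2% of the control mean, a 3.82-fold difference, and the nearest libraries were 2.73-fold apart. The log2 change was -1.88 with a standard error of 0.35, the largest error of the 4 tested loci. Its lowest value also came from replicate 2 of sequence 3, and without that library the log2 change was -1.56. All these values rest on its start. An end was listed in control replicate 2 only, at 3.74 FPKM, so with ends alone this locus dropped out of the test.

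XLOC_006715 lies between XLOC_006714 and XLOC_006716 and was listed in 1 library only, replicate 2 of sequence 3, at 0.502 FPKM. It has no entry in the other 5 libraries, failed the filter and has no fold change. With no counts in the files, whether it was silent or too low to be assembled cannot be told.

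The 5 loci together had 48.7 and 46.0 FPKM with sequence 2 and 58.4 and 51.5 FPKM with sequence 3, against 495 and 447 FPKM in the controls. Of the summed FPKM of all loci this was 0.0150% and 0.0149% with sequence 2 and 0.0179% and 0.0140% with sequence 3, against 0.166% and 0.140% in the controls. The make-up of the sum also differed. XLOC_006716 gave 11.7% to 21.0% of it in the knockdown libraries, against 52.3% and 52.0% in the controls. XLOC_006714 gave 49.8% to 64.8% in the knockdown libraries, against 36.0% and 35.5% in the controls. These shares restate the unequal folds of the loci, which range from 3.82 to 29.3.

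**Figure D2:**
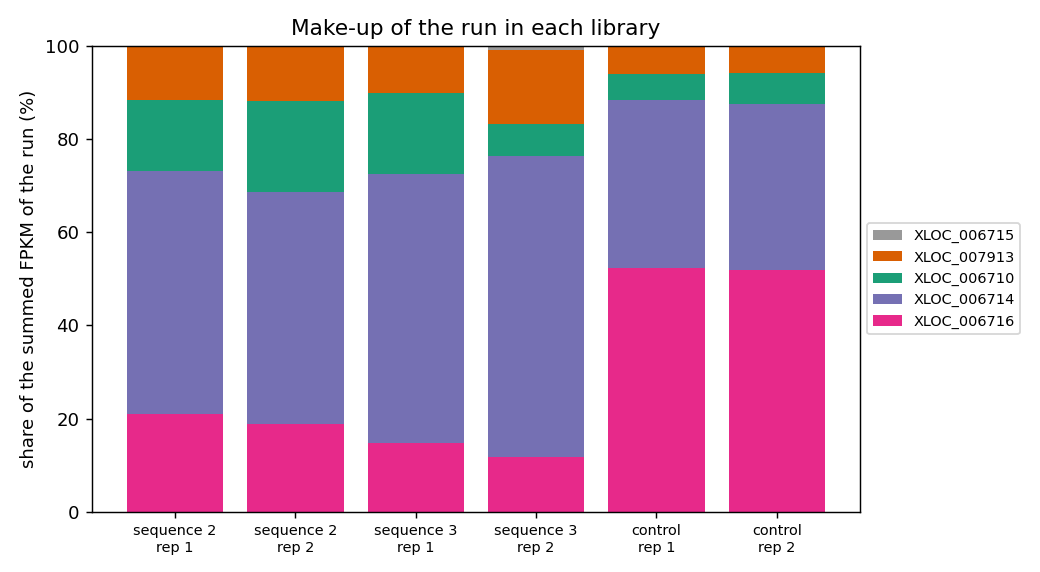
Share of the summed FPKM of the run taken by each of its loci, in percent, 1 bar per library with the knockdown libraries left of the controls. XLOC_006716 takes 52.3% and 52.0% in the controls and at most 21.0% in a knockdown library, where XLOC_006714 takes the largest share.

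The loci just outside the run are given as a description, since the stretch was chosen to end where its low loci end. The nearest locus before it, XLOC_007912 (ENSRNOG00000008287), ends 39.0 kb away and had 6.93 ± 0.708 FPKM in the knockdown libraries (SD, n = 4) and 5.34 ± 0.0344 FPKM in the controls (SD, n = 2). The locus before that, XLOC_007910 (ENSRNOG00000021780), had 2.168 ± 0.342 FPKM in the knockdown libraries and 2.10 ± 0.198 FPKM in the controls. Just after the run, XLOC_006717 begins 2.88 kb away on the same strand as XLOC_006716, carries no Ensembl ID, and had 2.36 ± 0.737 FPKM in the knockdown libraries and 2.46 ± 0.705 FPKM in the controls. The next, XLOC_006721 (ENSRNOG00000051251), had 1.06 ± 0.195 FPKM in the knockdown libraries and 0.580 ± 0.406 FPKM in the controls. The log2 changes of these 4 neighbours lay between -0.055 and 0.40. The members just inside, XLOC_006710 and XLOC_006716, had log2 changes of -1.88 and -4.74, which the choice of the stretch used. Within 1000 kb of the centre, 23 loci outside the run were tested, these 4 neighbours included, with a median log2 change of -0.055 and a range from -3.70 to 2.29. Of these, limma called 4 lower and 3 higher in knockdown against control at an adjusted p under 0.05. Across all 10648 tested loci it called 305 lower and 240 higher.

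**Figure D3:**
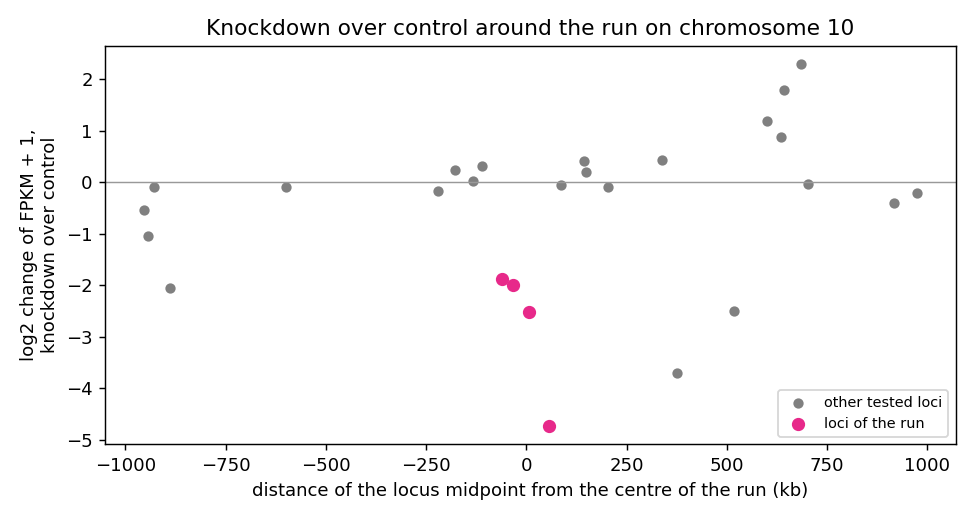
Log2 change of FPKM + 1, knockdown over control, of each tested locus within 1000 kb of the run, against the distance of its midpoint from the centre of the run in kb. The 4 tested loci of the run lie between -4.74 and -1.88, and the 2 nearest loci on each side between -0.055 and 0.40, with lower and higher loci again farther out.

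The 2 interference sequences could be compared with each other, a contrast that was not used to choose the run. The difference leaves out the levels of the controls, but the estimate of spread came from all 6 libraries, controls included. None of the 4 tested loci differed between sequence 3 and sequence 2 at an adjusted p under 0.05 from limma, where 0.0939% of all loci did, 10 of 10648. At an unadjusted p under 0.05 from limma, 1 of the 4 members passed, XLOC_006714, and 580 of all loci. It was 1.39-fold higher with sequence 3, with a log2 difference of 0.46, a 95% interval from 0.17 to 0.75, and an adjusted p of 0.732 from limma. Fitted on the libraries of the 2 sequences alone, its adjusted p was 0.782 from limma. XLOC_007913 had a log2 difference of 0.29 (95% interval from -0.14 to 0.71), XLOC_006716 of -0.35 (from -0.80 to 0.11) and XLOC_006710 of -0.37 (from -1.37 to 0.63). The adjusted p values from limma were 0.734, 0.734 and 0.777 in this order. These intervals do not show that the sequences act alike. Against control, each with the same 2 control libraries, the folds were 26.0 for sequence 2 and 33.6 for sequence 3 at XLOC_006716, 6.97 and 5.02 at XLOC_006714, 5.07 and 3.99 at XLOC_007913, and 3.495 and 4.21 at XLOC_006710.

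With sequence 2 and in the controls, replicate 1 minus replicate 2 on the log2 scale lay between -0.24 and 0.23 for all 4 tested loci. With sequence 3 this difference was 1.29 for XLOC_006710, 0.45 for XLOC_006716, 0.014 for XLOC_006714 and -0.39 for XLOC_007913, while the median absolute difference over all tested loci was 0.25. Over the 6 libraries, Pearson's r between the log2 levels of 2 members ranged from 0.83 to 0.99. These 6 points fall into low and high groups that chose the run, so the values only restate that. By the same measure, the loci outside the run most like its summed level were XLOC_001939 (ENSRNOG00000036604) on chromosome 1 from 252894663 to 252900726, and XLOC_023776 (ENSRNOG00000028768) on chromosome 2 from 248249468 to 248263168. Their r over the 6 libraries was 0.9998 and 0.9994, out of 10644 loci compared. XLOC_001939 had 11.6 and 11.8 FPKM with sequence 2 and 16.6 and 13.1 FPKM with sequence 3, against 748 and 641 FPKM in the controls. XLOC_023776 was listed in 1 knockdown library, replicate 1 of sequence 3 at 0.440 FPKM, against 36.2 and 30.8 FPKM in the controls.

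The files listed 28 different events for the run, of which 10 were transcript starts, 6 were transcript ends and 12 were splicing events. XLOC_007913 had 14 of them and XLOC_006716 had 6. An event is listed only where a transcript was assembled, so that a missing event at a low level is not evidence of absence.

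The starts of XLOC_006716 differed between the sequences. Its first exon was placed at 70411738 to 70411810, at 70412352 to 70412392 or at 70417108 to 70417180. All lie upstream of the only listed end, at 70432960 to 70435156. In every library the FPKM of this end equalled that of the first and last starts together. The middle start had no listed end. The first of these starts held 70.9% and 61.3% of the summed start FPKM with sequence 2 and 21.2% and 26.3% with sequence 3, against 24.9% and 27.3% in the controls. The last held 29.1% and 38.7% with sequence 2 and 74.7% and 71.2% with sequence 3, against 71.1% and 68.2% in the controls. Thus the sequence 2 libraries stood apart by 34.0 percentage points at the first start, while the sequence 3 libraries lay close to the controls.

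In FPKM, the first start had 7.25 and 5.31 with sequence 2 and 1.82 and 1.58 with sequence 3, against 64.4 and 63.4 in the controls. The last start had 2.97 and 3.36 with sequence 2 and 6.42 and 4.28 with sequence 3, against 184 and 159 in the controls. The mean of the first start was thus 10.2-fold lower with sequence 2 and 37.5-fold lower with sequence 3, and that of the last start 54.1-fold and 32.02-fold lower. The middle start was not listed with sequence 2. Among the 7048 starts of the 2670 loci with several starts and summed starts of at least 1 FPKM in every library, 4.11% had both sequence 2 libraries above the other 4, and 0.199% by at least 30 percentage points, a limit set after the values were seen. The difference in start use was not tested. A splicing event that joins the exon ending at 70411810 to the one beginning at 70417682, passing over both later starts, was listed with sequence 2 only, at 5.003 and 3.74 FPKM. Another, between the splice sites 70412392 and 70420423, was listed in all 6 libraries. It had 2.25 and 1.58 FPKM with sequence 2 and the FPKM of the first start itself in the other 4 libraries. With sequence 2 both events made up the first start, the larger part from the event listed only there. The higher share of this start with sequence 2 thus includes a transcript assembled in those libraries only. The other part of this start, 2.25 and 1.58 FPKM, stood beside 2.97 and 3.36 FPKM at the last start. Without that transcript the share would be smaller, but still above that of the other 4 libraries.

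**Figure D4:**
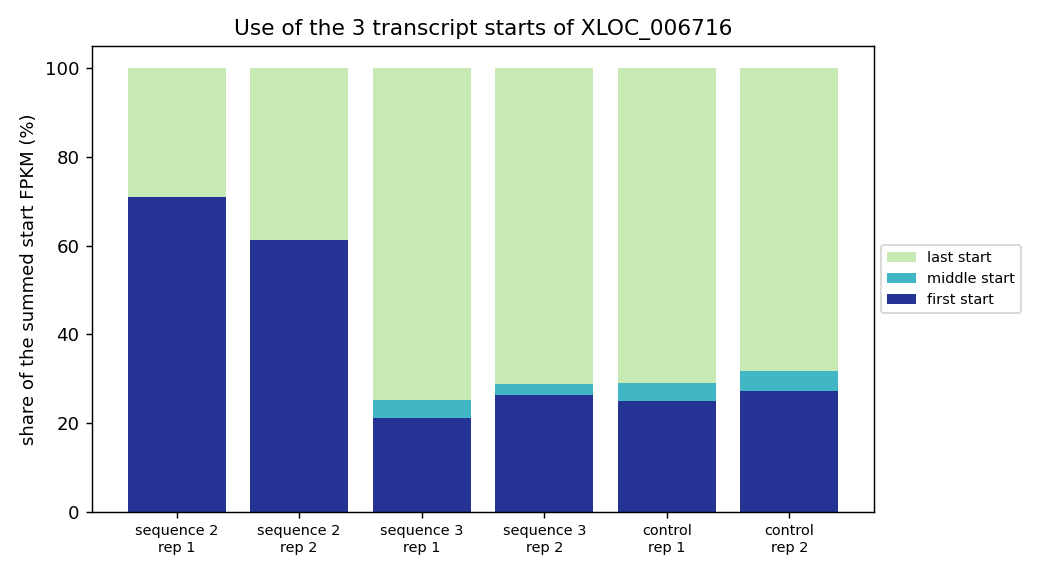
Share of the summed start FPKM of XLOC_006716 taken by its 3 transcript starts, in percent, 1 bar per library with the knockdown libraries left of the controls; first to last runs along the plus strand. The first start takes 70.9% and 61.3% with sequence 2, and 21.2% to 27.3% in the other 4 libraries.

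XLOC_007913 had 4 starts, of which the outermost, with a first exon at 70342233 to 70342492, held 83.5% and 56.7% of the start FPKM with sequence 2 and 82.7% and 42.6% with sequence 3, against 60.2% and 62.9% in the controls. The groups overlapped at this start. Replicate 1 of each sequence was above both controls and replicate 2 of each was below them. A second start at 70341661 held 13.7% and 36.2% with sequence 2 and 13.1% and 43.2% with sequence 3, against 23.3% and 22.5% in the controls. The start at 70337409 held 2.79% and 7.15% with sequence 2 and 4.14% and 14.2% with sequence 3, against 16.4% and 14.6% in the controls. Each knockdown share was below both controls there, at 0.157 to 1.15 FPKM, and this was not tested. The remaining start, at 70339566, held at most 0.00115% in any library. Of the FPKM of the 2 events between the splice sites 70337090 and 70341661, the one with the exon at 70337409 to 70337518 held 0% and 48.3% with sequence 2 and 0% and 55.2% with sequence 3, against 31.6% and 23.8% in the controls. The 0% values stand for an event that was not listed. In replicate 1 of sequence 2 the same exon was listed between the splice sites 70337090 and 70342233 instead, at 0.618 FPKM. At knockdown levels of 5.41 to 8.08 FPKM, the shares of the 2 libraries of a sequence lay on either side of both controls in 3 places. These were the outermost start, the second start and this exon between the splice sites 70337090 and 70341661. They are not separate observations. The shares of the 2 starts are parts of the same sum, and the exon's events share transcripts with the second start.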

How the data were processed

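RNA-seq of rat samples was analysed in 6 libraries, 2 for each of 3 groups named from the titles. The authors deposited, for every library, the FPKM of each locus split by event (where transcripts begin, where they end, and how exons are joined). The submitters' processing notes list HTSeq 0.6.1, StringTie 1.0.4, HISAT2 2.0.1, Trimmomatic 0.30, SAMtools 0.1.18 and bcl2fastq 2.17.1.14 without saying what each did. Build, annotation and depth: not given in the sources used here. No counting interval is therefore given.

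Starts and ends were summed per locus, and the larger sum was taken. An unlisted locus was set to 0, which can be a failed estimate, and a locus whose ends are unlisted then rests on its starts. Loci at 1 FPKM or above in 2 or more libraries were fitted as log2(FPKM + 1) with limma 3.58.1 (R 4.3.3, mean-variance trend, 1 mean per group, Benjamini-Hochberg adjustment over 10648 loci, two-sided). The added 1 makes the log2 change of weakly expressed loci too small, and folds in the text are ratios of mean FPKM. Code was tested on simulated data. Sums and shares were computed in pandas 2.3.3 under Python 3.11.15. The loci and lists were chosen with earlier results of these data known. All members were named, with 2 neighbours on each side and the 2 most similar loci. The planned gene lists and cell markers were not analysed here, because no ID was paired with a name. The promoter search was planned for promoters of the loci and was run on RefSeq's Schlafen promoters instead. Alternatives are given in the closing section.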

Additional observations from a re-analysis of the deposited data

Results flagged for a closer look

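In the 4 knockdown libraries, XLOC_006715 was listed at 0.502 FPKM in replicate 2 of sequence 3 and had no entry in the other 3. With the other 3 set to 0, any value in the listed library lies far from them, so no chance rate applies, and this was the only one of 11 groups of 4 values in which 1 library lay far from the others by Dixon's ratio.

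At the last start of XLOC_006716, both sequence 3 libraries were above the control mean in their share of start FPKM and both sequence 2 libraries were below it. Sequence 3 averaged 39.1 percentage points more than sequence 2, and the difference was not tested. The summed start FPKM with sequence 2 includes the transcript whose splicing event was listed with sequence 2 only.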

How the results depend on the processing

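The log2 change of the 4 tested loci in knockdown against control was negative in every alternative run, with ranges from -4.88 to -4.62 for XLOC_006716, -2.61 to -2.44 for XLOC_006714, -2.15 to -1.89 for XLOC_007913 and -2.20 to -1.56 for XLOC_006710. Only quantile normalization moved one by more than the spread of its replicates, XLOC_006714 to -2.61. The median of the run was -2.01 with no filter, which adds XLOC_006715, and -2.52 with summed ends only, which removes XLOC_006710, and without 1 library it was -2.36 to -2.19. Between sequence 3 and sequence 2, the median difference was 0.29 with no filter, 0.30 with summed ends only and 0.18 without replicate 2 of sequence 3, and -0.060 to 0.18 over all single libraries left out, against -0.030. XLOC_006710 changed sign without that library, to 0.27, and ranged from -1.01 to 0.27 over single libraries left out. No alternative gave a member an adjusted p from limma below 0.175 in this comparison.

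By limma at an adjusted p under 0.05, 305 of all loci were lower in the pooled knockdown libraries than in control, 261 for sequence 2 alone, 253 for sequence 3 alone, and 10 differed between the sequences. Without 1 library these were 119 to 349, 97 to 271, 99 to 318 and 0 to 15. Leaving out control replicate 1 or 2 gave 119 and 119 for the pooled libraries, 103 and 97 for sequence 2, and 99 and 99 for sequence 3. Without replicate 2 of sequence 2, 160 were lower for sequence 2 and 0 differed between the sequences, and without its replicate 1, 1 differed. With an FPKM of at least 1 in all 6 libraries they were 169 with sequence 2, 167 with sequence 3 and 0 between the sequences, where summed starts gave 18 and summed ends gave 5. Between libraries of the same replicate number, correlations of deviations were -0.082 for sequences 2 and 3, -0.061 for sequence 2 and control and 0.18 for sequence 3 and control. These values do not settle whether such libraries shared a culture or a batch. The fit with the replicate block gave 260, 227, 210 and 5 loci and changed no call of a member between the sequences. The cause was not tested. No depth was at hand to set a limit.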
